A study of Caenorhabditis elegans with 6 samples.

Results

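The mRNA levels of 8 tetraspanin genes of *C. elegans* (*tsp-1*, *tsp-2*, *tsp-3*, *tsp-7*, *tsp-12*, *tsp-14*, *tsp-15* and *tsp-21*) were compared between wild-type N2 animals and *mbl-1(tm1563)* mutants. The 8 genes were selected by symbol out of 21 *tsp* genes among the 46726 genes counted, and they were chosen with the difference between the strains already known, so their values in that contrast are given as a description. *mbl-1* encodes the worm Muscleblind, an RNA-binding protein that regulates splicing, and the tm1563 deletion removes an exon common to all of its isoforms. N2 and *mbl-1(tm1563)*, which had been outcrossed to N2, were grown at 20 °C on HT115 bacteria carrying an empty RNAi vector. Animals of both strains were moved to 10 µM 5-fluorouracil, used to keep progeny from hatching, at the fourth larval stage. The material was whole adults on day 2 of adult life, in 3 biological replicates per strain.

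Tetraspanins are small membrane proteins that cross the membrane 4 times and gather receptors, proteases and adhesion molecules into shared membrane domains. In *C. elegans*, TSP-12, TSP-14 and TSP-21 promote BMP-like (Sma/Mab) signalling, where TSP-12 and TSP-14 act through SUP-17, the worm ADAM10 protease. TSP-12 also promotes Notch signalling. TSP-15 works with the dual oxidase BLI-3 in the epidermis, where hydrogen peroxide cross-links the cuticle, TSP-7 is a relative of mammalian CD63 found on extracellular vesicles, and TSP-1 is a heat-induced protein of the intestine.

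The libraries held 17574738 to 20750318 counts on genes. Levels are given as CPM, in which each count is divided by the library total after TMM scaling, and levels of different genes are compared only as CPM per kb of exon. A gene was called changed at a Benjamini-Hochberg adjusted p under 0.05 in edgeR's quasi-likelihood test, over the 12335 genes with enough counts to be tested, together with a change of at least 2-fold. By this rule 84 genes (0.681%) were called higher and 141 (1.14%) lower in mutants. The strain labels were checked on *mbl-1* itself, which lay on chromosome X (WBcel235, 16978608 to 17010302) and measured 12.3, 12.2 and 13.5 CPM in the N2 libraries against 3.62, 7.84 and 5.79 CPM in the mutants, each in the order of replicates 1 to 3 an order kept throughout. The *mbl-1* level was lower in all 3 mutant libraries, with a log2 fold change of -1.14 ± 0.24 (SE). Since the deletion removes an exon, lost exon sequence and less transcript cannot be told apart in these gene counts.

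*tsp-1* and *tsp-2* were the only members called, and both were higher in mutants. *tsp-1* was 3.71-fold and *tsp-2* 5.23-fold above N2. The other 5 tested members had log2 fold changes between -0.51 and -0.01 and were not called in either direction, and *tsp-3* had too few counts to be tested. The 2 calls among 7 tested members stand beside the 0.681% of all tested genes called higher, and since the genes were chosen on this contrast nothing is read from that comparison. With DESeq2, too, *tsp-1* and *tsp-2* were called higher and no member was called lower, and at an unadjusted p under 0.05 in edgeR 1 member (*tsp-15*) was lower, as were 1718 (13.9%) of all tested genes.

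**Figure D1:**
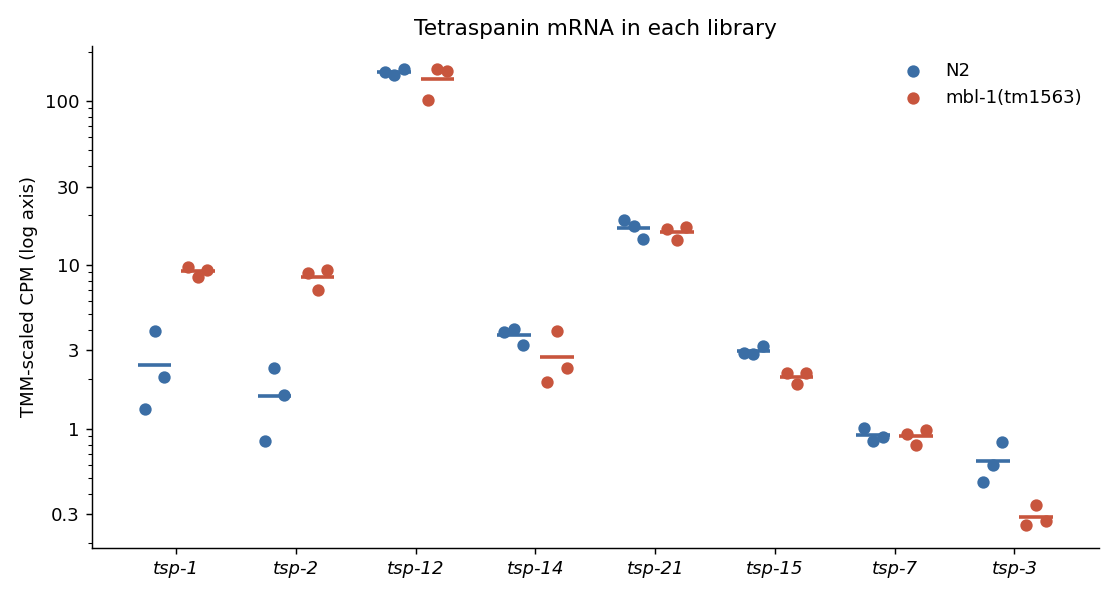
Level of each of the 8 tetraspanin mRNAs in each library, as TMM-scaled CPM on a log axis, with N2 in blue and *mbl-1(tm1563)* in red. Each point is a library (n = 3 per strain) and each short line a mean. The mutant libraries lie above the N2 libraries for *tsp-1* (8.46 to 9.73 against 1.32 to 3.93 CPM) and *tsp-2*, and below them for *tsp-15* and *tsp-3*.

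*tsp-1* (WBGene00006627) lay on the minus strand of chromosome III (WBcel235, 8238001 to 8239423), with 5 exons, 899 exon bases and a protein of 244 residues. The N2 libraries held 25, 79 and 35 counts of it and the mutant libraries 188, 149 and 170. On the CPM scale these were 1.32, 3.93 and 2.07 in N2 (mean 2.44 ± 1.34 SD, n = 3). In mutants they were 9.73, 8.46 and 9.28 CPM (mean 9.16 ± 0.642 SD, n = 3). The lowest mutant library stood above the highest N2 library, and the spread was wider in N2 (coefficient of variation 55.1%) than in mutants (7.01%). N2 replicate 2 was the high library, and its 95% counting interval (exact Poisson, 3.11 to 4.90 CPM) did not meet those of replicate 1 (0.854 to 1.95) or replicate 3 (1.44 to 2.88). The N2 replicates therefore differed by more than counting error, which is the only error such an interval covers. The fitted log2 fold change was 1.89 ± 0.32 (SE). It was 1.59 without N2 replicate 1, 1.79 without N2 replicate 3 and 1.88 without mutant replicate 3, and in each of these 3 fits *tsp-1* was no longer called.

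*tsp-2* (WBGene00006628) lay beside it on the same strand (8236928 to 8237935), with 4 exons, 823 exon bases and a protein of 234 residues. No role is given for it here. The 3 N2 libraries held 16, 47 and 27 counts and the 3 mutant libraries 173, 123 and 170. The N2 libraries measured 0.845, 2.34 and 1.60 CPM (mean 1.59 ± 0.747 SD) and the mutant libraries 8.96, 6.99 and 9.28 CPM (mean 8.41 ± 1.24 SD). As for *tsp-1*, the strains did not overlap, N2 replicate 2 was the highest and replicate 1 the lowest of the N2 libraries, and mutant replicate 2 was the lowest of the mutant libraries. The fitted log2 fold change was 2.39 ± 0.30 (SE), and *tsp-2* was called under all 14 alternative settings tried, where the log2 fold change ran from 2.08 to 2.79. The margin was small in some leave-out fits. In edgeR's quasi-likelihood test the adjusted p was 0.04998 without mutant replicate 3 and 0.0470 without N2 replicate 3. By fold change *tsp-2* ranked 11 and *tsp-1* 21 among all 12335 tested genes.

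**Figure D2:**
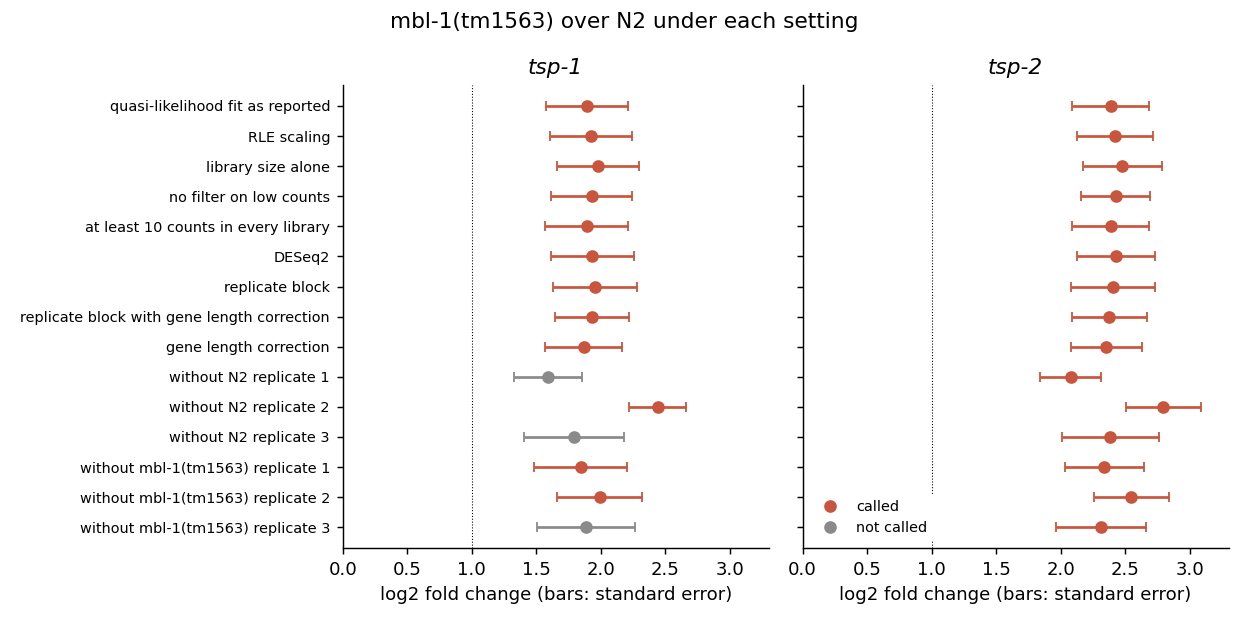
Log2 fold change of *tsp-1* (left) and *tsp-2* (right), mutants over N2, in the fit as reported and under each of 14 alternative settings, with bars for the standard error. Red points met the call rule and grey points did not. *tsp-1* ran from 1.59 to 2.44 and lost its call in 3 leave-out fits. *tsp-2* ran from 2.08 to 2.79 and kept its call throughout, with an adjusted p of up to 0.04998 (edgeR quasi-likelihood test, without mutant replicate 3).

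The pair is separated by 65 bases. Per kb of exon, *tsp-1* measured 2.71 ± 1.495 (SD) CPM in N2 and 10.2 ± 0.714 in mutants, and *tsp-2* 1.94 ± 0.908 and 10.2 ± 1.51. In N2, 26.1% of tested genes had a lower level per kb than *tsp-1* and 21.3% a lower level than *tsp-2*, and in mutants the share was 47.1% for both. The log2 ratio of *tsp-1* to *tsp-2* (CPM per kb) was 0.52, 0.62 and 0.25 in N2, whereas mutant libraries gave -0.007, 0.15 and -0.13. It was thus above 0 in every N2 library (mean 0.46 ± 0.19 SD) and around 0 in mutants (mean 0.005 ± 0.14 SD). The ranges did not overlap, the closest values being 0.25 in N2 and 0.15 in mutants. The N2 ratios rested on 16 to 79 counts per gene and library, and their counting error was not measured. Since the pair was chosen on this contrast, no shift of the ratio between strains is read from these values. Reads that aligned to several places were left out of the gene counts and made up 9.74 to 9.87% in N2 and 7.34 to 8.08% in mutants. How many of them came from these neighbouring relatives was not tested.

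The genes around the pair were read as a comparison that the choice of members did not use. Of 12 other annotated genes within 10000 bases of the stretch, 10 were tested, and none was called by edgeR's quasi-likelihood test or by DESeq2. Of all tested genes 0.681% were called higher and 1.14% lower in edgeR, so any 10 genes would seldom include a call. Nothing is read from the absence of calls here. At an unadjusted p under 0.05 in edgeR, none of the 10 was lower, beside 13.9% of all tested genes. None was higher at that limit, and the share of all tested genes higher there was not counted. The smallest adjusted p among the 10 in edgeR was 0.257. Log2 fold changes ran from -0.53 ± 0.26 (SE) for *C02F5.14*, 1414 bases from the pair on the *tsp-2* side, to 0.22 ± 0.23 for *C02F5.10*. *C02F5.12*, the first gene on the *tsp-1* side at 1449 bases, measured 7.69 ± 1.16 CPM in N2 and 8.43 ± 1.35 in mutants (log2 fold change 0.13 ± 0.16). *pbs-6*, which encodes a proteasome subunit, measured 300 ± 7.29 CPM in N2 and 317 ± 22.9 in mutants (0.08 ± 0.08). On the *tsp-2* side *henn-1*, a small-RNA methyltransferase, had -0.08 ± 0.07, *fbxl-1* -0.04 ± 0.10 and *rfs-1*, a RAD-51 paralog, -0.16 ± 0.18. On the far *tsp-1* side *cids-1* had 0.12 ± 0.07, *C02F5.3* 0.10 ± 0.09 and *C02F5.13* 0.21 ± 0.16. *C02F5.5*, 20 bases from *tsp-2* on the opposite strand, had 0 to 3 counts per library and, like *C02F5.15*, was not tested.

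**Figure D3:**
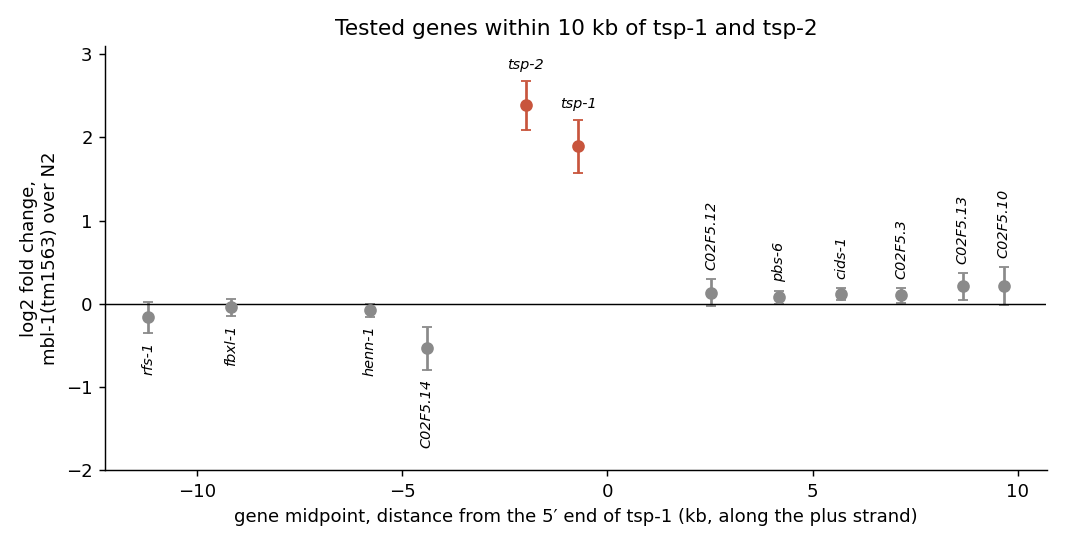
Log2 fold change, mutants over N2, of the tested genes within 10000 bases of *tsp-1* and *tsp-2*, plotted at the gene midpoint as distance from the 5′ end of *tsp-1* in kb, with bars for the standard error. *tsp-1* (1.89) and *tsp-2* (2.39) are in red and the 10 neighbours, between -0.53 and 0.22, in grey.

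As a description, all tested genes were ranked by how near their pattern over the 6 libraries lay to that of each gene of the pair (root mean square difference of log2 CPM centred on each gene's mean). *tsp-2* ranked 5 from *tsp-1*, at 0.25, against a median of 1.12 over all tested genes, and *tsp-1* ranked 3 from *tsp-2*, against a median of 1.31. The distance includes the strain difference on which the pair was chosen. Its nearness was thus set in part by that choice, and nothing is read from it. Nearer to *tsp-1* were *F23F12.3* at 0.20, *kreg-1* at 0.23, *cyp-13A5*, a cytochrome P450, at 0.24 and *Y47H10A.5* at 0.25. Nearest to *tsp-2* were *T26H5.9* at 0.21 and *cpt-4*, of the carnitine palmitoyltransferase family, at 0.22, and after *tsp-1* came *Y47H10A.5* and *Y37H2A.14*, both at 0.27. Each of these genes was itself higher in all 3 mutant libraries, which the ranking over the same libraries favours. *cyp-13A5*, which had the most counts in N2 among the genes nearest *tsp-1*, measured 5.49, 11.1 and 7.69 CPM in N2 and 23.6, 26.5 and 25.9 CPM in mutants. N2 replicate 2 was its highest N2 library, which follows in part from its being picked for nearness to *tsp-1* over these libraries.

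The members differed widely in level. In N2 the order per kb was *tsp-12* (121 ± 4.81 CPM per kb, SD), *tsp-21* (14.5 ± 1.92), *tsp-1* (2.71 ± 1.495), *tsp-15* (2.65 ± 0.169), *tsp-2* (1.94 ± 0.908), *tsp-14* (1.85 ± 0.215), *tsp-7* (0.960 ± 0.0856) and *tsp-3* (0.772 ± 0.219). The libraries of *tsp-1*, *tsp-15*, *tsp-2* and *tsp-14* overlapped each with the next, as did those of *tsp-7* and *tsp-3*, while *tsp-12* and *tsp-21* stood apart. In mutants *tsp-12* (110 ± 24.7) and *tsp-21* (13.7 ± 1.30) still led, and *tsp-2* and *tsp-1* came next and overlapped each other. *tsp-15* (1.85 ± 0.156), *tsp-14* (1.35 ± 0.522) and *tsp-7* (0.951 ± 0.102) followed with overlapping neighbours, and *tsp-3* (0.354 ± 0.0534) was last and apart.

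Of the members with a role in BMP-like signalling, *tsp-12* (WBGene00006638, chromosome IV, 10149166 to 10150602) was the most abundant tetraspanin and ranked above 91.0% of tested genes per kb in N2. It measured 149, 144 and 156 CPM in N2 and 101, 157 and 152 CPM in mutants. Mutant replicate 1 was low and the other mutant libraries lay within or just above the N2 range, with a log2 fold change of -0.13 ± 0.16 (SE) that became 0.04 without that library. The 6 germline markers summed to 3672 CPM in the same library against 7096 and 5623 in the other mutants and 6451 to 6980 in N2. It was the lowest of the 6 libraries for *cgh-1*, *mex-5*, *oma-1* and *gld-1*, most of the sum being *cgh-1*, *mex-5* and *gld-1*, but it was the highest for *pgl-1* (558 CPM) and lay between the other mutants for *glh-1* (456 CPM). The part of germline RNA in the *tsp-12* value was not tested. In whole animals fewer cells of a type and less RNA per cell cannot be told apart.

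*tsp-14* (WBGene00006640, chromosome X, 4866681 to 4876965), the partner of *tsp-12* in that pathway, measured 3.91, 4.08 and 3.25 CPM in N2 and 1.92, 3.92 and 2.35 CPM in mutants. Mutant replicates 1 and 3 lay below all N2 libraries and replicate 2 within them (log2 fold change -0.47 ± 0.26). *tsp-21* (WBGene00023491, chromosome X, 9932371 to 9937133) measured 18.7, 17.2 and 14.3 CPM in N2 and 16.6, 14.1 and 16.9 CPM in mutants. The *tsp-21* ranges overlapped almost entirely (-0.08 ± 0.13).

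*tsp-15* (WBGene00006641, chromosome I, 8928750 to 8931089) measured 2.90, 2.84 and 3.19 CPM in N2 and 2.17, 1.87 and 2.18 CPM in mutants. All 3 mutant libraries were below the lowest N2 library, as they were for 17.9% of all tested genes, and the log2 fold change was -0.51 ± 0.16. It was the only tested member with that order, and *tsp-1* and *tsp-2* were the only ones with every mutant library above, as for 14.7% of tested genes. *tsp-7* (WBGene00006633, chromosome I, 9969972 to 9973177) measured 1.003, 0.846 and 0.887 CPM in N2 and 0.932, 0.795 and 0.982 CPM in mutants. These *tsp-7* levels rested on 14 to 19 counts per library, and the log2 fold change was -0.01 ± 0.23. *tsp-3* (WBGene00006629, chromosome III, 13212666 to 13214463), for which no role is given, lay on the same chromosome as the pair but far from it. It had 9, 12 and 14 counts in N2 and 5, 6 and 5 in mutants, or 0.475, 0.597 and 0.828 CPM against 0.259, 0.341 and 0.273 CPM. All mutant libraries were lower for *tsp-3*, and a fit with no filter on low counts gave a log2 fold change of -1.06 ± 0.45 and no call. Exons of *tsp-7*, *tsp-15*, *tsp-21* and *tsp-14* share 66, 57, 30 and 10 bases with other genes, and since reads were counted without strand those over shared bases could not be assigned.

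**Figure D4:**
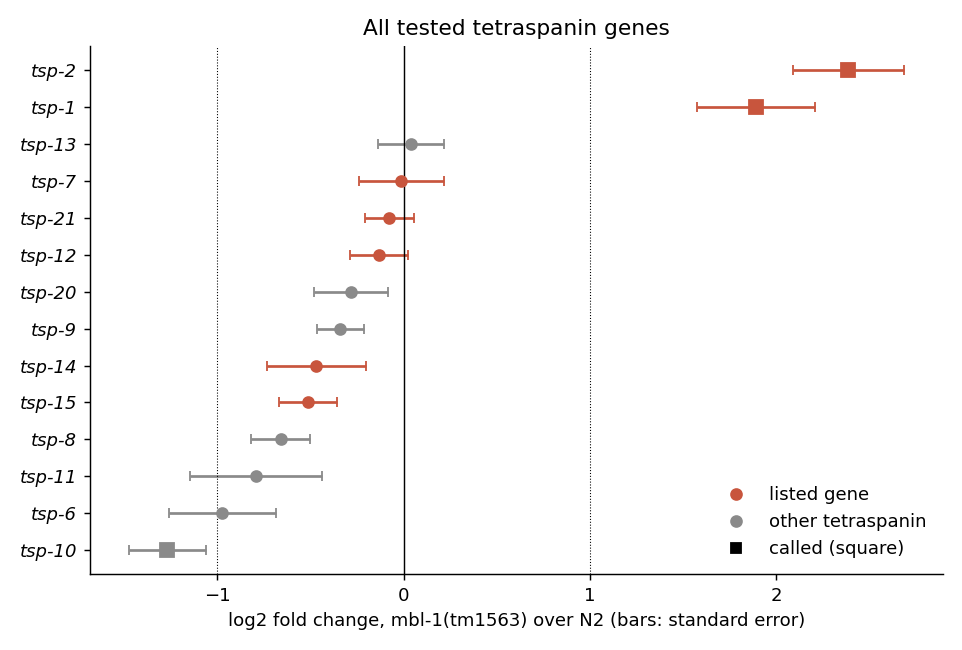
Log2 fold change, mutants over N2, of the 14 tested tetraspanin genes, with bars for the standard error. The listed genes are red and the other tetraspanins grey, squares mark called genes and dotted lines a 2-fold change. *tsp-2* (2.39) and *tsp-1* (1.89) lie to the right, and 11 of the 14 genes lie left of 0, beside 6814 of all 12335 tested genes.

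Among the 13 other *tsp* genes, 7 were tested, 1 was called lower and none higher, by edgeR's quasi-likelihood test and by DESeq2 alike. At an unadjusted p under 0.05, 4 of the 7 were lower, beside 13.9% of all tested genes. None was higher at that limit, for which the share of all tested genes was not counted. The called gene was *tsp-10*, at 7.76, 4.83 and 6.15 CPM in N2 and 2.64, 2.27 and 2.84 CPM in mutants, with a log2 fold change of -1.27 ± 0.21 (adjusted p = 0.0166, quasi-likelihood test in edgeR, Benjamini-Hochberg adjusted). The *tsp-10* call was lost without N2 replicate 1 (-1.08), N2 replicate 3 (-1.28) or mutant replicate 3 (-1.34), and 107 of its exon bases overlap *T14B4.8*. *tsp-6* went from 1.21 ± 0.197 to 0.613 ± 0.170 CPM (-0.97 ± 0.29), *tsp-8* from 5.67 ± 0.679 to 3.57 ± 0.457 (-0.66 ± 0.16) and *tsp-11* from 0.948 ± 0.190 to 0.550 ± 0.218 (-0.79 ± 0.35), and none of these was called. *tsp-9* had a log2 fold change of -0.34 ± 0.13, *tsp-20* -0.28 ± 0.20 and *tsp-13* 0.04 ± 0.18. In 6 of the 7 genes the highest mutant library was below the lowest N2 library, beside 17.9% of all tested genes. The median log2 fold change was -0.66, beside -0.31 over all 14 tested *tsp* genes and -0.04 over all tested genes. These genes were left over after the members were picked from the family with the contrast known, so nothing is read from these comparisons. *tsp-6* rested on 8 to 28 counts per library and *tsp-11* on 6 to 22. With at least 10 counts asked of every library both dropped out, and the median of the 5 genes left was -0.34, with 4 negative. *tsp-4*, *tsp-5*, *tsp-16*, *tsp-17*, *tsp-18* and *tsp-19* were not tested. *tsp-16* and *tsp-17* had 1 to 12 counts per library, *tsp-4* and *tsp-5* at most 3, *tsp-18* 1 count in 1 library and *tsp-19* none in any.

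The partners of these tetraspanins were listed by pathway. These lists and the tissue marker lists were chosen with earlier results of these data known. Their counts beside all tested genes are thus a description, and nothing is read from that comparison. In the dual oxidase list, 4 of 5 genes were tested (*duox-2* was not) and none was called, but 2 had an adjusted p under 0.05 and a smaller change, both lower, as did 3.58% of all tested genes at any fold. *mlt-7*, a peroxidase that acts with BLI-3 on the cuticle, fell from 21.96, 24.7 and 20.4 CPM in N2 to 11.5, 10.9 and 12.01 CPM in mutants (log2 fold change -0.97 ± 0.11, adjusted p = 0.00451, quasi-likelihood test in edgeR, Benjamini-Hochberg adjusted). *bli-3*, the dual oxidase partner of TSP-15, fell from 14.9, 15.4 and 14.7 to 8.85, 10.2 and 8.51 CPM (-0.71 ± 0.11, adjusted p = 0.0122, the same edgeR test). A correction for gene length left *mlt-7* at -0.85 (adjusted p = 0.00485 in edgeR) and *bli-3* at -0.41 (adjusted p = 0.0867). Over the 14 alternative settings the adjusted p of *mlt-7* stayed under 0.05 in all and that of *bli-3* in 8. *doxa-1*, the dual oxidase maturation factor, had -0.66 ± 0.37, with mutant replicate 2 at 2.61 CPM above the N2 range and replicates 1 and 3 at 0.828 and 1.20 below it, and *memo-1* had -0.27 ± 0.12. At an unadjusted p under 0.05, 3 of the 4 were lower (13.9% of all tested genes), DESeq2 called none, and the median of the list was -0.69. *mlt-7* crossed 2-fold and was called without N2 replicate 3 (-1.03) or mutant replicate 3 (-1.0004), and *doxa-1* was called without mutant replicate 2 (-1.21).

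In the BMP-like Sma/Mab list all 13 genes were tested, none was called by edgeR's quasi-likelihood test or DESeq2, 12 had a negative log2 fold change (as did 6814 of all 12335 tested genes) and the median was -0.22. At an unadjusted p under 0.05, 4 of the 13 were lower (13.9% of all tested genes). The 1 gene with an adjusted p under 0.05 was *lon-1*, a target that the pathway represses, which fell from 40.2 ± 0.993 to 32.1 ± 1.32 CPM (-0.33 ± 0.07, adjusted p = 0.0476, quasi-likelihood test in edgeR, Benjamini-Hochberg adjusted). That adjusted p was under 0.05 in 4 of 14 alternative settings and reached 0.207. *sma-10*, a receptor-binding membrane protein, had -0.71 ± 0.17 (adjusted p = 0.0609 in edgeR) and the co-Smad *sma-4* -0.27 ± 0.10. The zinc-finger cofactor *sma-9* measured 92.5, 97.7 and 106 CPM in N2 and 32.6, 102 and 61.0 CPM in mutants (-0.60 ± 0.34), and it was called only without mutant replicate 2 (-1.04). In the ADAM10 and Notch list all 13 genes were tested and none was called by either tool. At an unadjusted p under 0.05, 1 of 13 was lower, beside 13.9% of all tested genes. The median was -0.07, with 9 negative values, beside 6814 of all 12335 tested genes. *sup-17*, the protease partner of TSP-12 and TSP-14, measured 309, 317 and 326 CPM in N2 and 203, 329 and 264 CPM in mutants (-0.26 ± 0.16), so that mutant replicate 1 was again the lowest. The *sup-17* value was -0.10 with the length correction and ran from -0.40 to -0.098 over the 14 alternative settings. *sel-8*, a Notch co-activator, had -0.40 ± 0.16, and the Notch receptor *lin-12* had -0.25 ± 0.15, which became 0.02 with the length correction.

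**Figure D5:**
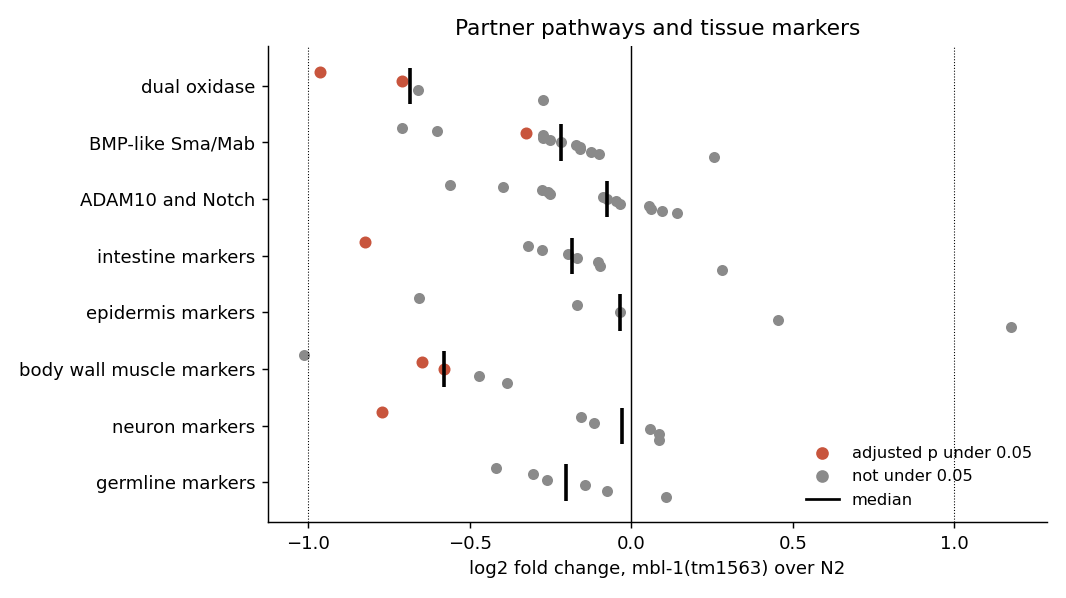
Log2 fold change, mutants over N2, of each tested gene of the partner pathways and of the tissue marker lists, with a black bar at each list's median. Red points had an adjusted p under 0.05 in edgeR's quasi-likelihood test, and dotted lines mark a 2-fold change. All 4 dual oxidase genes (median -0.69) and all 5 muscle markers (median -0.58) lie left of 0, beside 6814 of all 12335 tested genes.

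Tissue markers were read beside these values. The 8 intestinal markers, of the tissue where TSP-1 is known, summed to 730 to 738 CPM in N2 and 557 to 679 CPM in mutants, most of the sum being *act-5* and *vha-6*. Of the log2 fold changes of the 8 markers 7 were below 0, beside 6814 of all 12335 tested genes, and the median was -0.18. None of the 8 was called, and 3 were lower at an unadjusted p under 0.05, beside 13.9% of all tested genes. The peptide transporter gene *pept-1* was the 1 intestinal gene with an adjusted p under 0.05 (-0.82 ± 0.09, adjusted p = 0.00451, quasi-likelihood test in edgeR, Benjamini-Hochberg adjusted). Of the 6 epidermal markers 5 were tested, with values from -0.66 to 1.18 and a median of -0.03, and *bli-1* had too few counts. The highest value, 1.18 ± 0.58, was that of *rol-6*, which was not called. It had 13, 21 and 4 counts in N2 and 49, 24 and 12 in mutants, so the strains overlapped. The 5 muscle markers were all lower, beside 6814 of all 12335 tested genes, with a median of -0.58. Their sums were 661 to 742 CPM in N2 against 348 to 577 in mutants, most of the sum being *unc-54* and *unc-15*. Of the 5 muscle markers, *myo-3* (-0.65 ± 0.10, adjusted p = 0.0145) and *unc-54* (-0.58 ± 0.13, adjusted p = 0.0438) passed the edgeR test, and with the length correction they were at -0.29 and -0.24. Their adjusted p was under 0.05 in 8 and 7 of the 14 alternative settings. The neuronal list had a median of -0.03, with *egl-3* at -0.77 ± 0.16 (adjusted p = 0.0389 in edgeR, under 0.05 in 9 of 14 alternative settings and up to 0.168), and the germline list -0.20. None of the 3 sperm genes had enough counts to be tested, and *msp-10* had none in any library. Mutant replicate 1 stood apart, with 16 counts of *spe-11* and 11 of *msp-3* and a summed 1.40 CPM against 0 to 0.170 CPM in the other libraries. No marker was called by edgeR's quasi-likelihood test or DESeq2, with 8 of 30 tested lower at an unadjusted p under 0.05 beside 13.9% of all tested genes, and the part of tissue make-up in the tetraspanin values was not tested.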

How the data were processed

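RNA was measured in 6 libraries of whole day 2 adults, 3 per strain. Libraries came from a stranded poly(A) kit. The authors aligned with STAR (WBcel235), ran HTSeq in its unstranded mode and deposited the raw counts per gene. Tool versions are not given in the sources used here. Multi-mapped and ambiguous reads were left out of the counts (ambiguous reads, 0.821 to 1.01%). Symbols, positions and exon lengths came from the Ensembl annotation of the same build, which held 46364 of the 46726 identifiers. Every pair of libraries differed by more than sampling noise (lowest chi-square per degree of freedom 3.59), so each was used as a replicate.

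The test was run on the deposited counts with edgeR 4.0.16 (R 4.3.3): filterByExpr (minimum count 10, minimum total 15), TMM scaling, and the robust quasi-likelihood test with strain as the only factor, with Benjamini-Hochberg adjustment over all genes tested. Each SE of an edgeR log2 fold change was derived from the test, as the absolute log2 fold change divided by the square root of the F value. DESeq2 1.42.0 was an alternative, as were other scalings, filters, a length correction, a replicate block and leaving out each library.

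The members and lists were chosen with earlier results of these data known. Named were all *tsp* genes, neighbours of the pair within 10000 bases, the 3 genes with the smallest p of each partner list, the 5 nearest patterns, *mbl-1* and markers. *duox-2*, *doxa-1* and *sma-9* fall outside this rule and, like the choice of *cyp-13A5* to show levels, were picked after their values were seen. No sequences are shown.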

Additional observations from a re-analysis of the deposited data

How the results depend on the processing

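Without N2 replicate 1, N2 replicate 3 or mutant replicate 3, *tsp-1* was no longer called. Leaving out 1 library at a time gave *tsp-1* log2 fold changes of 1.59 to 2.44, 1 to 2 members called higher, 0 to 2 genes of the partner lists called and 0 to 1 other tetraspanins called. With no limit on the fold change 3 partner genes were counted. Values that changed sign were as follows. *tsp-7* turned to 0.0207 with RLE scaling, 0.0241 with no filter, 0.0200 with DESeq2 and 0.0707 with library size alone, and ran from -0.0744 to 0.114 over the leave-out fits. *tsp-21* was 0.00745 with library size alone and -0.177 to 0.0434 over the leave-out fits, *tsp-12* -0.214 to 0.0431 and *tsp-13* -0.111 to 0.131. *lin-12* was 0.0186 with the length correction. In a replicate block *tsp-1* had 1.95 and *tsp-2* 2.41, both called, and 168 genes were called overall against 225. With the replicate block and the length correction *lin-12* was 0.0115. Same-numbered libraries correlated by 0.008 to 0.13, so the numbers are not read as pairs, and replicate 2 of either strain did not correlate best with its own number. Across settings 85 to 368 genes were called, the lowest without mutant replicate 3 and the highest without mutant replicate 2. The causes of these shifts were not tested. *tsp-3* and *tsp-7* rested on 5 to 19 counts per library, and the size of change detectable at that depth was not measured.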
